A study of Mus musculus with 18 samples.

Results

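Expression of 9 genes that mark neurones and glia of the inner retina was examined in whole mouse lenses carrying mutations of the α-crystallin genes. The genes were *Tfap2a*, *Tfap2b*, *Six6*, *Reln*, *Calb2*, *Prkca*, *Slc1a3*, *Glul* and *Rlbp1*, which are 9 of the 40800 Ensembl genes in the count table. They were taken by symbol from a list that was selected on expression values of the *Cryab*-R120G lenses and includes genes raised there. Their levels in the *Cryab* line are therefore given as a description without a test, and only the *Cryaa* line, whose contrasts were not named in the choice, was tested.

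All mice were C57BL/6J. The *Cryaa* line was collected at 2 days of age as WT lenses, lenses heterozygous for the R49C knock-in (*Cryaa*-R49C-het) and homozygous lenses (*Cryaa*-R49C-homo). The *Cryab* line was collected at 14 days of age as WT lenses and as lenses with 1 or 2 copies of the R120G knock-in (*Cryab*-R120G-het, *Cryab*-R120G-homo). Each of the 6 groups had 3 libraries, and each library was made from several pooled whole lenses. The 2 knock-ins are point mutations, so the count of the targeted gene does not check a genotype. Line and age change together, and an effect of 1 cannot be told apart from an effect of the other. The genotype field of the *Cryab* mutant libraries names the *Cryaa* line, so their groups were taken from the titles.

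The neural retina lies behind the lens and shares no cells with it. In its inner layers, amacrine and horizontal cells relay signals sideways, bipolar cells carry them from photoreceptors to ganglion cells, and Müller glia span the whole tissue, clearing glutamate and recycling retinoids. *Tfap2a* and *Prkca* are also known from tissues outside the retina, and AP-2α in particular from the lens epithelium.

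Library totals lay between 14272174 and 29639719 counts. Levels are given as CPM, the read count scaled to library size, after TMM scaling of the libraries, whose factors lay between 1.20 and 2.27 in the *Cryaa* line and between 0.488 and 0.774 in the *Cryab* line. Some libraries stood apart within their own group. *Cryab*-WT replicate 1 had a summed level of 17 photoreceptor markers of 1023 CPM, against 29.2 and 103 CPM in *Cryab*-WT replicates 2 and 3. *Cryaa*-R49C-homo replicate 1 had a summed level of 8 markers of the ciliary margin and ciliary epithelium of 103 CPM, against 8.86 and 10.6 CPM in replicates 2 and 3. *Cryaa*-WT replicate 3 and *Cryaa*-R49C-het replicate 3 had the highest photoreceptor sums of their groups, 81.9 and 102 CPM, against 18.7 to 22.4 and 23.3 to 56.9 CPM in the other libraries. Values without such libraries, chosen after seeing the data, are given beside several results.

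Upstream sequence was looked up because most of these genes moved together over libraries. RefSeq windows of the GRCm38.p6 build were found for 8 of the 9 genes, with *Tfap2a* having 2 starts. The 250 bases before the start are shown for *Slc1a3* and *Rlbp1*, which followed each other most closely over the *Cryab* libraries, and for *Reln*, which held the letters bound by AP-2 factors, 2 of which are among the 9 genes. *Slc1a3* lies on the minus strand at chr15:8710808-8711057, *Rlbp1* on the minus strand at chr7:79387028-79387277 and *Reln* on the minus strand at chr5:22344706-22344955. Capitals mark TATAAA (in both cases read on the opposite strand, so printed as TTTATA) or GCCNNNGGC, the palindrome that AP-2 proteins such as those of *Tfap2a* and *Tfap2b* are known to bind.
Slc1a3: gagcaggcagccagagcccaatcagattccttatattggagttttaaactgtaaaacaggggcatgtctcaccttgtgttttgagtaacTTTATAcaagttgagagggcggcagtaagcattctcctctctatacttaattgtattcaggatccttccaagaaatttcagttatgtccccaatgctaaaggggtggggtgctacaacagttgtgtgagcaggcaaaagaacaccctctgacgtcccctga
Rlbp1: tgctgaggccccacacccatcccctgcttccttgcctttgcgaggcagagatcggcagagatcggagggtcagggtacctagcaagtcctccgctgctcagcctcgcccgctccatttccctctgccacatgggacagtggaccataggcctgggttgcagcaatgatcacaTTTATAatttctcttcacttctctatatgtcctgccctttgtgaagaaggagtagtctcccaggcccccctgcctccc
Reln: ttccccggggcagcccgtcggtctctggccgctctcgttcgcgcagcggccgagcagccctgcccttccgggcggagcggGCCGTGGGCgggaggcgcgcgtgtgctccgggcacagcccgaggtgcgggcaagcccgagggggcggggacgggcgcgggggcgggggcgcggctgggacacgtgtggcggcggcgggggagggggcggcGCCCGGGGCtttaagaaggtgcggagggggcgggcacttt
The TATAAA letters lay 161 bases before the start in *Slc1a3* and 78 bases before it in *Rlbp1*, in 2 of the 8 genes and in 12.4% of 32851 RefSeq windows. GCCNNNGGC was found in *Reln*, *Prkca* and *Glul*, and in 13.7% of all windows. In *Reln* it lay 170 and 40 bases before the start. GGGCGG, the GC box, was found in 6 of the 8 genes and in 32.7% of all windows, with 6 matches in *Reln*, and overlaps between the motifs were counted for each motif alone. TAATTA, a homeodomain core, was found upstream of 1 of the *Tfap2a* starts and in 4.84% of windows. TAATCC, the core that the photoreceptor factor CRX is known to bind, was in none of the 8 genes and in 6.25% of windows. Windows of *Slc1a3* and *Rlbp1* were 44.8% and 57.2% G and C, against 80.0% in *Reln* and a median of 52.4% over all windows. A match describes the sequence and does not show a binding site.

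*Tfap2a*, *Tfap2b* and *Six6* encode transcription factors. *Tfap2b* encodes AP-2β, a marker of amacrine and horizontal cells (chromosome 1, 19208914 to 19238576, GRCm38). In WT lenses of the *Cryaa* line it was at 7.03, 7.33 and 24.0 CPM, in *Cryaa*-R49C-het at 15.5, 4.84 and 25.2 CPM, and in *Cryaa*-R49C-homo at 5.66, 6.57 and 9.81 CPM. In the *Cryab* line it was at 2.75, 0 and 0.0742 CPM in WT, at 3.97, 1.89 and 1.19 CPM in het, and at 8.45, 2.59 and 1.3 CPM in homo lenses. The last 2 WT libraries held 0 and 1 counts. The groups overlapped in both lines, in the *Cryab* line through WT replicate 1, which lay above 2 of the 3 libraries of either mutant group.

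*Six6*, a homeodomain factor of eye field and retina (chromosome 12, 72939892 to 72944899), was at 9.20, 7.16 and 19.8 CPM in *Cryaa*-WT, at 13.3, 9.80 and 18.1 CPM in *Cryaa*-R49C-het and at 12.3, 3.46 and 4.41 CPM in *Cryaa*-R49C-homo lenses. *Cryab* lenses had it at 1.10, 0.0667 and 0.297 CPM in WT, at 2.16, 1.76 and 0.841 CPM in het and at 2.95, 1.82 and 2.29 CPM in homo lenses. It was the single gene of the 9 whose 3 *Cryab*-R120G-homo libraries all lay above the 3 WT libraries. The *Cryab*-WT counts behind this were 10, 1 and 4.

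*Tfap2a*, which encodes AP-2α (chromosome 13, 40715302 to 40738376), behaved otherwise. Its levels lay between 2.53 and 6.84 CPM over all 18 libraries, and its highest library exceeded its lowest by 1.13 to 2.55 times within a group. The *Cryab*-WT mean of 4.6 ± 1.97 CPM (SD, n = 3) stood beside 4.45 ± 0.461 CPM in het and 4.14 ± 0.697 CPM in homo lenses. *Cryab*-WT replicate 1 had the lowest *Tfap2a* level of the line and, among the WT libraries, the highest level of each of the other 8 genes.

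*Reln*, *Calb2* and *Prkca* encode a secreted protein, a calcium buffer and a kinase of neurones. *Reln* encodes reelin, a matrix glycoprotein that guides neuronal layering (chromosome 5, 21884454 to 22344702). It was at 12.1, 9.29 and 17.4 CPM in *Cryaa*-WT, at 11, 7.11 and 8.5 CPM in *Cryaa*-R49C-het and at 13.3, 1.63 and 2.89 CPM in *Cryaa*-R49C-homo lenses. The homo libraries split 8.13-fold from lowest to highest, the widest split of *Reln* in that line. At day 14 *Reln* was at 4.19, 0.200 and 0.519 CPM in WT, at 5.50, 3.65 and 1.89 CPM in het and at 5.11, 2.37 and 6.42 CPM in homo lenses.

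*Calb2* encodes calretinin, a calcium-binding protein of amacrine and ganglion cells (chromosome 8, 110137502 to 110168210). It was at 2.22, 3.55 and 9.35 CPM in *Cryaa*-WT, at 9.64, 2.47 and 13.4 CPM in *Cryaa*-R49C-het and at 1.74, 1.85 and 6.58 CPM in *Cryaa*-R49C-homo lenses. *Cryab* lenses had *Calb2* at 5.95, 0.734 and 1.93 CPM in WT, at 15.4, 6.85 and 2.94 CPM in het and at 32.6, 16 and 3.90 CPM in homo lenses. The spread within the homo group was thus 8.37-fold, and its lowest library lay below the highest WT library. *Prkca*, which encodes protein kinase C α, a marker of rod bipolar cells (chromosome 11, 107933387 to 108343928), lay between 4.34 and 13.1 CPM over the 18 libraries. Its *Cryab* means were 10.4 ± 2.72 CPM in WT, 9.03 ± 1.21 CPM in het lenses and 10.1 ± 3.05 CPM in homozygous ones (SD over 3 libraries), and the libraries of the 3 groups overlapped.

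*Slc1a3*, *Glul* and *Rlbp1* are the glial genes. *Slc1a3* encodes the glutamate transporter GLAST of Müller glia (chromosome 15, 8634124 to 8710764). It was at 8.61, 6.79 and 14.6 CPM in *Cryaa*-WT, at 8.77, 5.09 and 15.7 CPM in *Cryaa*-R49C-het and at 6.23, 4.71 and 7.34 CPM in *Cryaa*-R49C-homo lenses. At day 14 it was at 3.41, 0.267 and 0.148 CPM in WT, at 3.88, 2.48 and 0.911 CPM in het and at 8.32, 3.25 and 1.61 CPM in homo lenses. Replicates 2 and 3 of *Cryab*-WT, with 4 and 2 counts, lay below every mutant library of that line.

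*Glul* encodes glutamine synthetase, which converts the glutamate taken up by glia (chromosome 1, 153899944 to 153909723). It was at 8.09, 4.86 and 11.9 CPM in *Cryaa*-WT, at 7.98, 6.58 and 8.35 CPM in *Cryaa*-R49C-het and at 6.61, 3.65 and 5.48 CPM in *Cryaa*-R49C-homo lenses. Among *Cryab* libraries it was at 14.0, 2.07 and 2.23 CPM in WT, at 7.93, 5.74 and 3.50 CPM in het and at 7.60, 6.16 and 7.34 CPM in homo lenses. Its highest library of that line was thus a WT library, replicate 1.

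*Rlbp1* encodes the retinaldehyde-binding protein CRALBP of Müller glia and pigment epithelium (chromosome 7, 79374870 to 79387048). It was at 6.22, 3.34 and 11.4 CPM in *Cryaa*-WT, at 5.99, 4.36 and 10.3 CPM in *Cryaa*-R49C-het and at 4.10, 4.24 and 5.4 CPM in *Cryaa*-R49C-homo lenses. At day 14 it was at 15.3, 1.0 and 0.816 CPM in WT, at 13.3, 7.96 and 3.01 CPM in het and at 29.4, 14.2 and 5.20 CPM in homo lenses. The *Cryab*-WT libraries differed by 18.8-fold among themselves, more than any 2 group means of *Rlbp1* in the line.

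**Figure D1:**
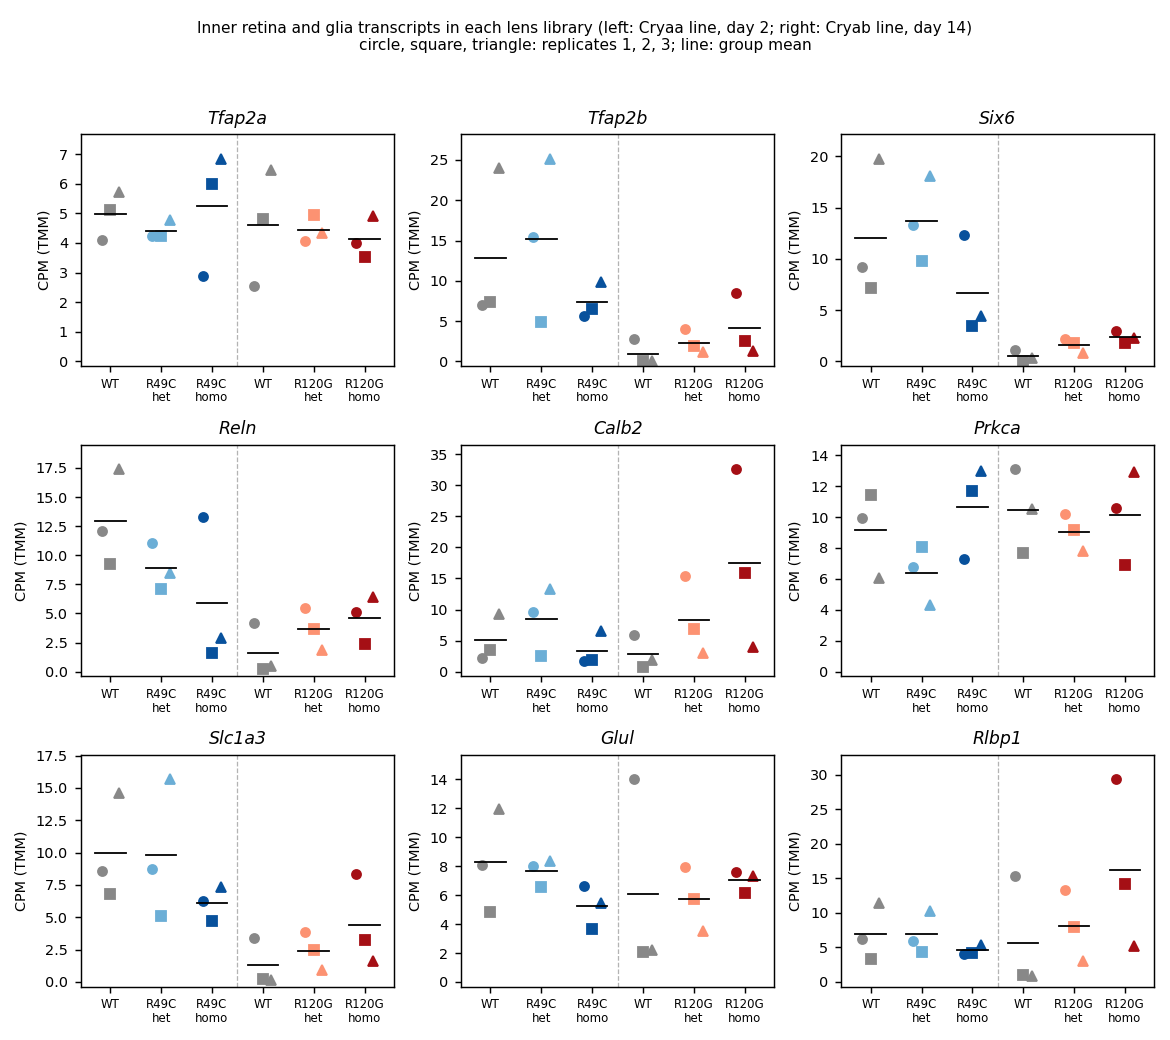
CPM after TMM scaling (vertical axes, each from 0) of the 9 genes in the 18 libraries, by genotype, with *Cryaa* libraries left and *Cryab* libraries right of the dashed line; symbols give replicates 1, 2 and 3 and bars the mean of 3 libraries. *Cryab*-WT replicate 1 (circle) lies apart from replicates 2 and 3 for *Rlbp1*, at 15.3 against 1.0 and 0.816 CPM, while *Tfap2a* and *Prkca* stay within a narrow range.

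Levels were compared between genes only per kilobase of exon. In *Cryab*-R120G-homo lenses *Calb2* was highest, at 10.0 ± 8.28 CPM per kilobase (SD, n = 3), and *Rlbp1* second, at 5.51 ± 4.13, and these do not differ beyond their spread. *Glul* followed at 2.12 ± 0.231 CPM per kilobase. *Reln*, the longest transcript, was lowest per kilobase in all 6 groups, at 0.0689 ± 0.0933 in *Cryab*-WT and 0.545 ± 0.174 in *Cryaa*-WT lenses, also when the length implied by the deposited RPKM was used. In *Cryaa*-WT lenses *Six6*, at 3.00 ± 1.69, *Calb2*, at 2.89 ± 2.18, *Glul*, at 2.5 ± 1.07, and *Rlbp1*, at 2.37 ± 1.39 CPM per kilobase, were the highest and do not differ beyond their spread. With the RPKM length the order there was *Calb2*, *Rlbp1*, *Six6* and *Glul*.

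The WT lenses of the 2 lines were set side by side without a test. *Six6* was at 12.0 ± 6.76 CPM at day 2 and 0.488 ± 0.543 CPM at day 14, *Tfap2b* at 12.8 ± 9.71 and 0.943 ± 1.57 CPM, *Reln* at 12.9 ± 4.13 and 1.64 ± 2.21 CPM, and *Slc1a3* at 10.0 ± 4.09 and 1.28 ± 1.85 CPM (SD, n = 3 each). For these 4 genes every day 14 WT library lay below every day 2 WT library, with TMM and with library size alone. *Calb2*, *Glul* and *Rlbp1* overlapped between the ages under either scaling. *Tfap2a* and *Prkca* overlapped with TMM but were lower at day 14 in every library with library size alone, so their overlap depends on the scaling. For *Tfap2a* the day 14 mean was lower under both, at 0.926 and 0.306 times the day 2 mean, while for *Prkca* the direction turned, from 1.14 to 0.406 times. *Cryab*-WT replicate 1 was the highest day 14 WT library for all of these genes but *Tfap2a*.

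In the *Cryaa* line, none of the 9 genes passed the threshold of an FDR of 0.05 in edgeR's quasi-likelihood test, adjusted over the 13938 genes kept by the filter on low counts, which all 9 passed. For *Cryaa*-R49C-het against WT, 0.00717% of all genes tested passed. For *Cryaa*-R49C-homo against WT, 9.79% passed, with 679 genes higher and 685 lower (1884 and 254 with library size alone), and for homo against het 8.32%. Of the 9 genes, 0, 0 and 1 had an unadjusted p under 0.05 in these contrasts, the 1 being *Prkca* in homo against het, beside 5.09%, 24.3% and 23.7% of all genes, so the members' counts are no higher than the background. DESeq2 called 0 of the 9 in each contrast, beside 0.0143%, 12.1% and 10.3% of all genes. None of the 9 had groups of libraries that did not overlap, in het or in homo lenses against WT, where 21.9% and 24.5% of all genes did not overlap.

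In *Cryaa*-R49C-het lenses the log2 fold changes against WT lay between -0.54 for *Reln* and 0.75 for *Calb2*, with a median of -0.02 (0.36 without *Cryaa*-WT replicate 3 and -0.30 without *Cryaa*-R49C-het replicate 3), beside -0.01 over all genes. The adjusted p lay between 0.836 and 0.996 in edgeR's quasi-likelihood test. In *Cryaa*-R49C-homo lenses 7 of the 9 values were below 0, with a median of -0.66 (-0.06 without *Cryaa*-WT replicate 3) beside 0.00 over all genes, and the adjusted p lay between 0.362 and 0.921. *Reln* had the lowest value there, -1.10 (SE 0.795), followed by *Six6* at -0.83 (SE 0.519) and *Tfap2b* at -0.81 (SE 0.899). Without *Cryaa*-WT replicate 3 *Tfap2b* was at 0.03, *Calb2* at 0.21 in place of -0.60 and *Six6* at -0.27. The 2 values above 0 were those of *Prkca*, 0.22 (SE 0.292), and *Tfap2a*, 0.07 (SE 0.295). The missing calls do not show equal levels.

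*Six6* and *Reln* turned on *Cryaa*-R49C-homo replicate 1, in which both were near WT levels. That library also stood apart in the share of counts taken by *Gm42418*, at 2.53% against 24.5% and 42.6% in homo replicates 2 and 3 and 20.0% to 30.1% in WT, and the part of this in the levels was not tested. Without that library, edgeR's quasi-likelihood test gave *Six6* a log2 fold change against WT of -1.62 (adjusted p = 0.0325) and *Reln* one of -2.52 (adjusted p = 0.0373). In homo against het lenses without it, *Six6* was at -1.81 (adjusted p = 0.0146) and *Prkca* at 0.95 (adjusted p = 0.0165) in the same test. These are 2 of the 9 genes in each contrast, and 22.1% and 29.4% of all genes passed without that library, so the share is near the background. That library was singled out after its levels of these genes were seen, so the p-values without it are a description. With all libraries *Prkca* was at 0.74 (SE 0.294, adjusted p = 0.128 in edgeR's quasi-likelihood test) in homo against het lenses. Markers of the ciliary margin split the homo libraries in the same way. *Col9a1*, a collagen chain, was at 57.2, 2.83 and 4.18 CPM, and *Wfdc1*, a secreted protease inhibitor family member, at 27.8, 0.346 and 0.266 CPM in the 3 homo libraries. The summed ciliary markers ranged from 47.5 to 98.1 CPM in WT, from 71.2 to 79.0 CPM in het and from 8.86 to 103 CPM in homo lenses, and their part in the levels of *Six6* and *Reln* was not tested.

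Markers of other cell types also moved in *Cryaa*-R49C-homo against WT lenses. Of 11 lens fibre markers tested, 4 fell and 0 had a value above 0, with a median of -0.78, DESeq2 calling 8 and the likelihood-ratio test with robust dispersions 10, beside 4.91% of all genes lower, 12.1% called by DESeq2 and 20.7% by the likelihood-ratio test. Their summed level was 168824, 80997 and 58372 CPM in the 3 homo libraries, against 139079 to 206435 CPM in WT, so the libraries low in *Six6* and *Reln* were also low in fibre markers. Of 7 macrophage markers, 2 rose, *C1qa* by 1.53 and *Aif1* by 1.49 on the log2 scale (adjusted p = 0.0214 and 0.0479 in edgeR's quasi-likelihood test), with a median of 1.3, beside 679 of 13938 genes higher. *Gja1*, a gap junction gene of the lens epithelium list, fell by 2.00 on the log2 scale, from 27.7 ± 8.5 to 6.86 ± 3.16 CPM (SD, n = 3), and *Col1a2*, a collagen chain of periocular mesenchyme, by 1.03 (adjusted p = 4.77e-05 and 0.0129 in edgeR's quasi-likelihood test). These were 1 of 7 lens epithelium and 1 of 5 mesenchyme markers tested, beside 4.91% of all genes lower, with list medians of -0.13 and -0.17. The summed lens epithelium level was 198 to 225 CPM in homo, 192 to 229 CPM in het and 234 to 257 CPM in WT lenses. The summed mesenchyme level overlapped, at 11.2 to 20.6 CPM in homo and 17.8 to 22.7 CPM in WT lenses. Without homo replicate 1 the medians were -1.25 for fibre and 1.51 for macrophage markers. The part of these cell types in the values of the 9 genes was not tested.

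In the *Cryab* line, 7 of the 9 genes had a higher fitted level in *Cryab*-R120G-homo than in WT lenses. The largest log2 fold changes were those of *Calb2*, 2.69 (SE 1.06), *Six6*, 2.47 (SE 0.795), and *Tfap2b*, 2.41 (SE 1.22). *Slc1a3* was at 1.99 (SE 0.936), *Reln* at 1.66 (SE 0.973) and *Rlbp1* at 1.59 (SE 0.979). *Glul* was at 0.26 (SE 0.579), with *Prkca* at -0.04 (SE 0.301) and *Tfap2a* at -0.18 (SE 0.314). The median was 1.66 beside 0.00 over all genes, and 0.0502% of all genes passed the FDR threshold in this contrast. These values come from the lenses on which the genes were selected, as do those of *Cryab*-R120G-het lenses, and are a description.

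The same 9 genes were fitted in *Cryab*-R120G-het against WT lenses. *Six6* was at 1.89 (SE 0.835), *Calb2* at 1.62 (SE 1.06) and *Tfap2b* at 1.56 (SE 1.28). *Reln* was at 1.32 (SE 0.989), *Slc1a3* at 1.10 (SE 0.980) and *Rlbp1* at 0.57 (SE 0.988), while *Glul*, *Tfap2a* and *Prkca* lay between -0.20 and -0.04. The median was 1.10 beside 0.00 over all genes, and 0.00717% of all genes passed the threshold. The het libraries shared their WT controls with the homo libraries, so these 2 sets of values are not independent. Markers of blood cells were also high in some libraries. Summed erythroid markers were at 146, 15.6 and 24.3 CPM in *Cryab*-WT, at 451, 134 and 204 CPM in het and at 49.2, 178 and 111 CPM in homo lenses, with WT replicate 1 again the highest WT library. Summed macrophage markers were at 2.31, 0.801 and 1.19 CPM in WT, at 4.15, 2.68 and 1.82 CPM in het and at 7.34, 3.41 and 2.14 CPM in homo lenses, with 7 of 7 markers above 0 in homo against WT and a median of 2.02. None of these markers passed edgeR's quasi-likelihood test in the *Cryab* line, and DESeq2 called 0. There 5 of 5 erythroid markers in het and 3 of 7 macrophage markers in homo lenses had an unadjusted p under 0.05, beside 3.82% and 6.1% of all genes. The likelihood-ratio test with robust dispersions called 5 of 5 erythroid markers in het lenses, beside 0.33% of all genes. In homo lenses it called 4 of 5 erythroid and 2 of 7 macrophage markers, beside 1.84% of all genes. The part of these markers in the values of the 9 genes was not tested.

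**Figure D2:**
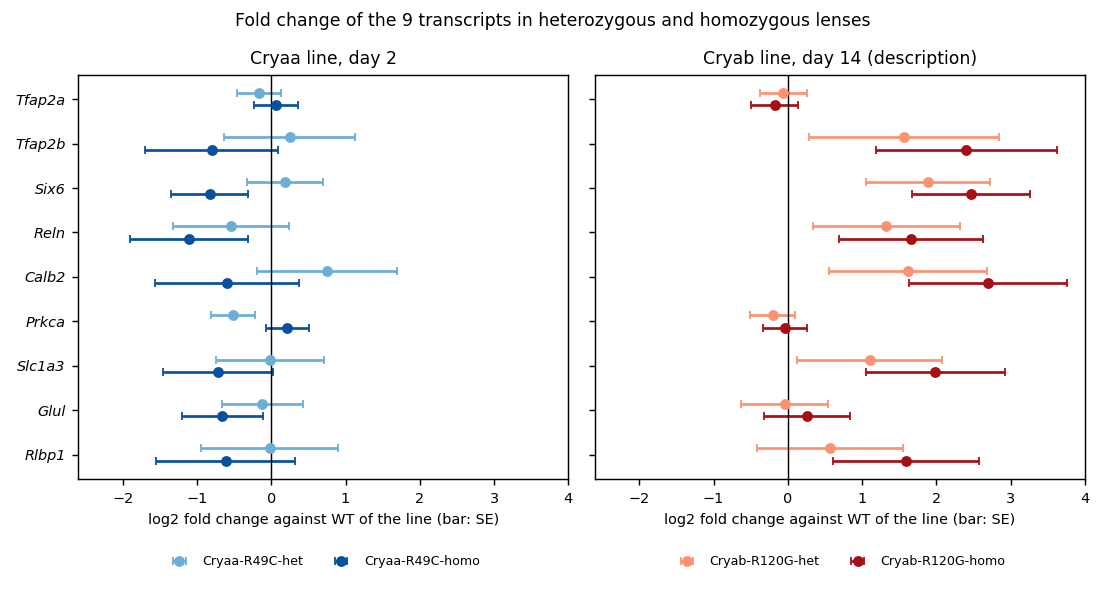
Log2 fold change against WT of the line (horizontal axis) with its standard error for the 9 genes, in heterozygous and homozygous lenses of the *Cryaa* line (left) and the *Cryab* line (right, a description). In *Cryaa*-R49C-homo lenses 7 of 9 values lie below 0 and none passed the test, and in *Cryab*-R120G-homo lenses 7 of 9 lie above 0, led by *Calb2* at 2.69.

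The *Cryab* values moved with the libraries included and with the pairing. With all WT libraries, 0 of the 9 genes in het and 1 in homo lenses had every mutant library above every WT library, beside 4.62% and 4.51% of all genes. Against WT replicates 2 and 3 alone, 7 of the 9 had every mutant library above them in het and in homo lenses, beside 10.6% and 12.6% of all genes. The 7 were *Tfap2b*, *Six6*, *Reln*, *Calb2*, *Slc1a3*, *Glul* and *Rlbp1*. Without WT replicate 1 the median log2 fold change became 3.12 in het and 3.69 in homo lenses. *Tfap2b* then reached 6.68 in homo lenses, where the WT libraries left held 0 and 1 counts, and *Glul* reached 1.71. *Slc1a3* was then at 3.47 in het and 4.36 in homo lenses, *Rlbp1* at 3.13 and 4.15, *Reln* at 3.35 and 3.68 and *Calb2* at 2.65 and 3.73. In het lenses *Tfap2b* was at 5.83, *Six6* at 3.12 and *Glul* at 1.4. Without *Cryab*-R120G-het replicate 1, *Rlbp1* was at 0.02 and *Calb2* at 0.86 in het lenses. Without *Cryab*-R120G-homo replicate 1, *Tfap2b* was at 1.35, *Slc1a3* at 1.15 and *Rlbp1* at 0.85 in homo lenses. The lowest medians were 0.52 in het lenses, without WT replicate 3, and 1.06 in homo lenses, without WT replicate 2. Without WT replicate 2, *Tfap2b* was at 0.85 and *Reln* at 0.72 in het lenses. In homo lenses without WT replicate 1, *Tfap2a* was at -0.45 and *Prkca* at 0.15. Same-numbered WT and homo libraries deviated together, and within these 3 pairs the homo library was the higher in all 3 for 6 of the 9 genes, beside 14.9% of all genes. The 6 were *Tfap2b*, *Six6*, *Reln*, *Calb2*, *Slc1a3* and *Rlbp1*. The summed ganglion, amacrine, inner retina neurone, photoreceptor, pigment, ciliary and macrophage markers were also higher in 3 of 3 pairs. The lens fibre sum was higher in 0 of 3 and the sums of the other lists in 1 or 2. Fibre markers summed to 680319 to 723181 CPM in WT and to 525978 to 712418 CPM in homo lenses, so the groups overlapped. *Glul* was higher in 2 pairs, and *Tfap2a* and *Prkca* in 1 each. With the pair as a block the median of the 9 genes was 2.10 in homo lenses. The pairs, chosen for display after seeing the data, are a description of the lenses on which the genes were selected.

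The variation of the 9 genes over libraries was described with a division made after seeing their values. Among the 7 genes other than *Tfap2a* and *Prkca*, the 21 pairwise correlations of log2 CPM over the 9 *Cryab* libraries lay between 0.71 and 0.99 (Pearson r), with a median of 0.88. Over the 9 *Cryaa* libraries they lay between 0.23 and 0.93, with a median of 0.74. *Tfap2a* and *Prkca* had correlations with the other 7 between -0.76 and 0.54 in the *Cryab* line and between -0.90 and 0.38 in the *Cryaa* line. Without *Cryab*-WT replicate 1 the 21 pairs lay between 0.787 and 0.995, with a median of 0.93, and without *Cryaa*-R49C-homo replicate 1 those of the *Cryaa* line lay between 0.40 and 0.92, with a median of 0.81. These correlations describe libraries that share genotype groups and scaling. *Tfap2a* and *Prkca* were at 0.36 with each other in the *Cryaa* and at -0.14 in the *Cryab* line. The 9 genes were selected on *Cryab* values, so their likeness in that line is not a separate result.

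**Figure D3:**
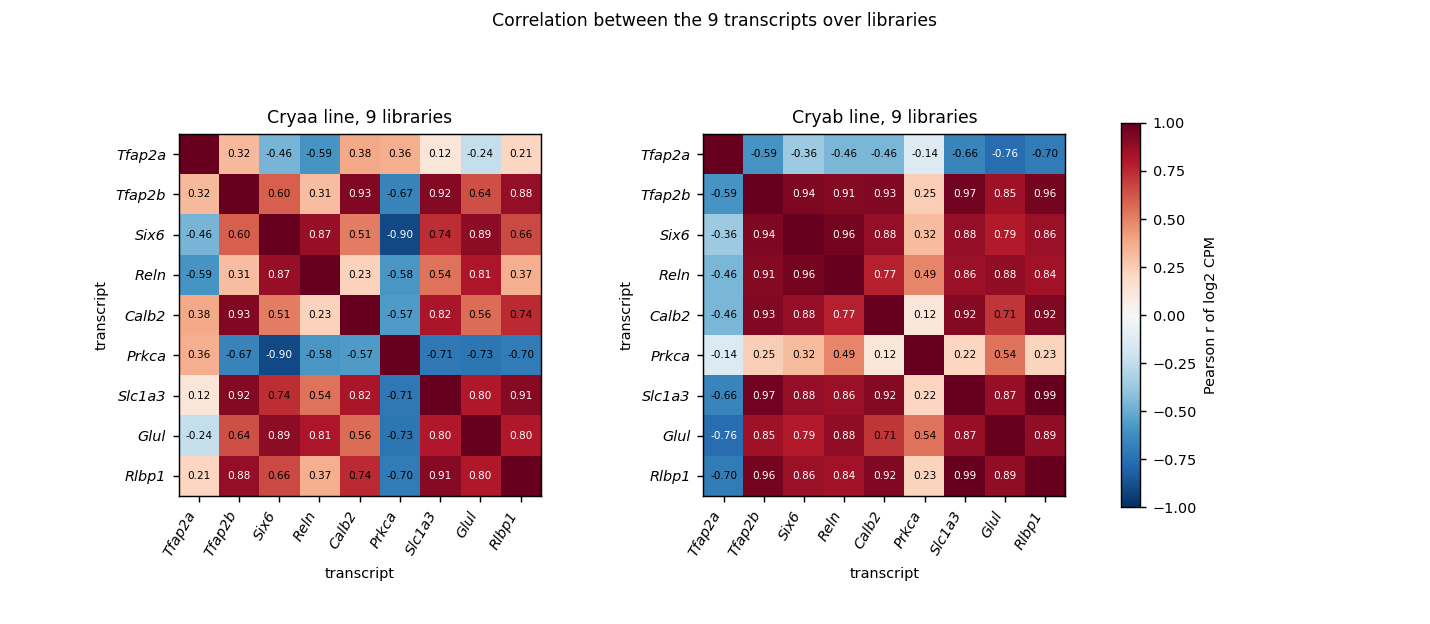
Pearson correlation of log2 CPM between the 9 genes over the 9 libraries of the *Cryaa* line (left) and of the *Cryab* line (right), from blue at -1 to red at 1. *Slc1a3* and *Rlbp1* reach 0.99 in the *Cryab* line, and *Prkca* and *Six6* reach -0.90 in the *Cryaa* line.

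Within the *Cryaa* line the correlations of the 7 genes were less even. *Tfap2b* correlated with *Calb2* at 0.93, with *Slc1a3* at 0.92 and with *Rlbp1* at 0.88. *Six6* correlated with *Glul* at 0.89 and with *Reln* at 0.87, while *Reln* and *Calb2* were at 0.23 and *Tfap2b* and *Reln* at 0.31. *Glul* also reached 0.80 with *Rlbp1* and with *Slc1a3*, and *Six6* 0.74 with *Slc1a3*, so the genes did not divide into separate sets. *Tfap2b*, *Slc1a3* and *Rlbp1* were highest in *Cryaa*-WT replicate 3 and *Cryaa*-R49C-het replicate 3, *Calb2* in *Cryaa*-R49C-het replicates 3 and 1, and *Reln* was highest in *Cryaa*-WT replicate 3 and *Cryaa*-R49C-homo replicate 1.

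Photoreceptor markers, which belong to the outer retina and are no members, varied over the same libraries. Their summed level was 22.4, 18.7 and 81.9 CPM in *Cryaa*-WT, 56.9, 23.3 and 102 CPM in *Cryaa*-R49C-het and 31.1, 27.9 and 46.1 CPM in *Cryaa*-R49C-homo libraries, with 1 of the 17 markers, *Opn1mw*, at 0 in all of them. Over the 9 *Cryaa* libraries *Tfap2b* followed this sum with Pearson's r = 0.93 and Spearman's ρ = 0.72 (exact permutation p = 0.000863 and 0.0369, adjusted over 18 relations 0.00965 and 0.12). *Rlbp1* followed it with r = 0.87 and ρ = 0.67 (exact permutation p = 0.00295 and 0.0589, adjusted 0.0133 and 0.12). *Calb2* had r = 0.87 and *Slc1a3* r = 0.82 (exact permutation, adjusted p = 0.0164 and 0.0219), each with ρ = 0.67 and an adjusted p of 0.12 for ρ. The relation of these 4 genes therefore passed 0.05 after adjustment on the linear scale of log2 levels and not on ranks. The permutations exchanged all 9 libraries freely, although they belong to different genotypes, so differences between genotypes enter these p-values.

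Without *Cryaa*-WT replicate 3 and *Cryaa*-R49C-het replicate 3, the libraries farthest from the median, r was 0.77 for *Tfap2b*, 0.73 for *Calb2*, 0.58 for *Rlbp1* and 0.39 for *Slc1a3*, so much of the *Slc1a3* relation rests on those 2 libraries. *Six6* (r = 0.58), *Glul* (0.61), *Reln* (0.19) and *Tfap2a* (0.23) did not pass after adjustment in the exact permutation test, with adjusted p of 0.161, 0.135, 0.627 and 0.627. *Prkca* ran the other way, with r = -0.73 (exact permutation, adjusted p = 0.0596). Without those 2 libraries r was -0.27 for *Prkca*, 0.09 for *Six6*, 0.25 for *Glul*, -0.13 for *Reln* and 0.13 for *Tfap2a*. Without *Cryaa*-R49C-homo replicate 1 alone, r was 0.94 for *Tfap2b*, 0.91 for *Calb2*, 0.87 for *Rlbp1* and 0.82 for *Slc1a3*. Inside each genotype, *Tfap2b*, *Calb2*, *Slc1a3*, *Rlbp1* and *Tfap2a* were highest in the library with the most photoreceptor signal in 3 of 3 groups, *Six6* and *Glul* in 2, and *Reln* and *Prkca* in 1. The library with the least photoreceptor signal held the lowest level of *Six6*, *Reln*, *Slc1a3* and *Glul* in 3 of 3 groups, of *Rlbp1* in 2, of *Tfap2b* and *Calb2* in 1, and of *Tfap2a* and *Prkca* in 0.

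The ciliary markers were set beside the same genes. Because *Cryaa*-R49C-homo replicates 2 and 3 formed a cluster of their own for those markers, no r over all 9 libraries is given, although those 9 relations count among the 18 of the adjustment, and r over the other 7 libraries is a description. It was 0.65 for *Six6*, 0.61 for *Glul*, 0.52 for *Reln*, 0.39 for *Rlbp1*, 0.14 for *Slc1a3*, 0.12 for *Tfap2b*, -0.04 for *Calb2*, -0.38 for *Tfap2a* and -0.51 for *Prkca*. Over the 9 *Cryab* libraries *Six6* had r = 0.98 with the ciliary sum, and r = 0.87 without *Cryab*-WT replicates 2 and 3, where *Tfap2b* had 0.91 and 0.44 and *Reln* 0.91 and 0.36. *Calb2* went from 0.86 to 0.62, *Slc1a3* from 0.83 to 0.42 and *Rlbp1* from 0.80 to 0.29. The sign turned for *Glul*, from 0.67 to -0.26, for *Tfap2a*, from -0.25 to 0.63, and for *Prkca*, from 0.17 to -0.16.

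In the *Cryab* line the photoreceptor markers summed to 1023, 29.2 and 103 CPM in WT, 763, 366 and 122 CPM in het and 1498, 757 and 260 CPM in homo libraries. None of the 17 markers passed edgeR's quasi-likelihood test in *Cryab*-R120G-homo against WT lenses, although 17 of 17 had a value above 0, with a median log2 fold change of 1.08. There 0 had an unadjusted p under 0.05, DESeq2 called 0 and the likelihood-ratio test with robust dispersions called 8. Without *Cryab*-WT replicate 1 the median was 3.62. The description over the 9 *Cryab* libraries gave r = 0.95 for *Rlbp1*, 0.94 for *Calb2*, 0.93 for *Tfap2b*, 0.92 for *Slc1a3*, 0.88 for *Glul*, 0.87 for *Six6* and 0.84 for *Reln* with this sum. *Prkca* was at 0.36 and *Tfap2a* at -0.63. Without *Cryab*-WT replicate 2 and *Cryab*-R120G-homo replicate 1, *Rlbp1* remained at 0.94 and *Slc1a3* at 0.90, while *Six6* and *Reln* were at 0.64 and 0.65. Without *Cryab*-WT replicate 1 alone, r of the 7 genes lay between 0.84 for *Reln* and 0.99 for *Calb2*. The part of photoreceptor signal in the levels of these genes was not tested, and in bulk lens RNA fewer cells of a type and less RNA per cell cannot be told apart.

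**Figure D4:**
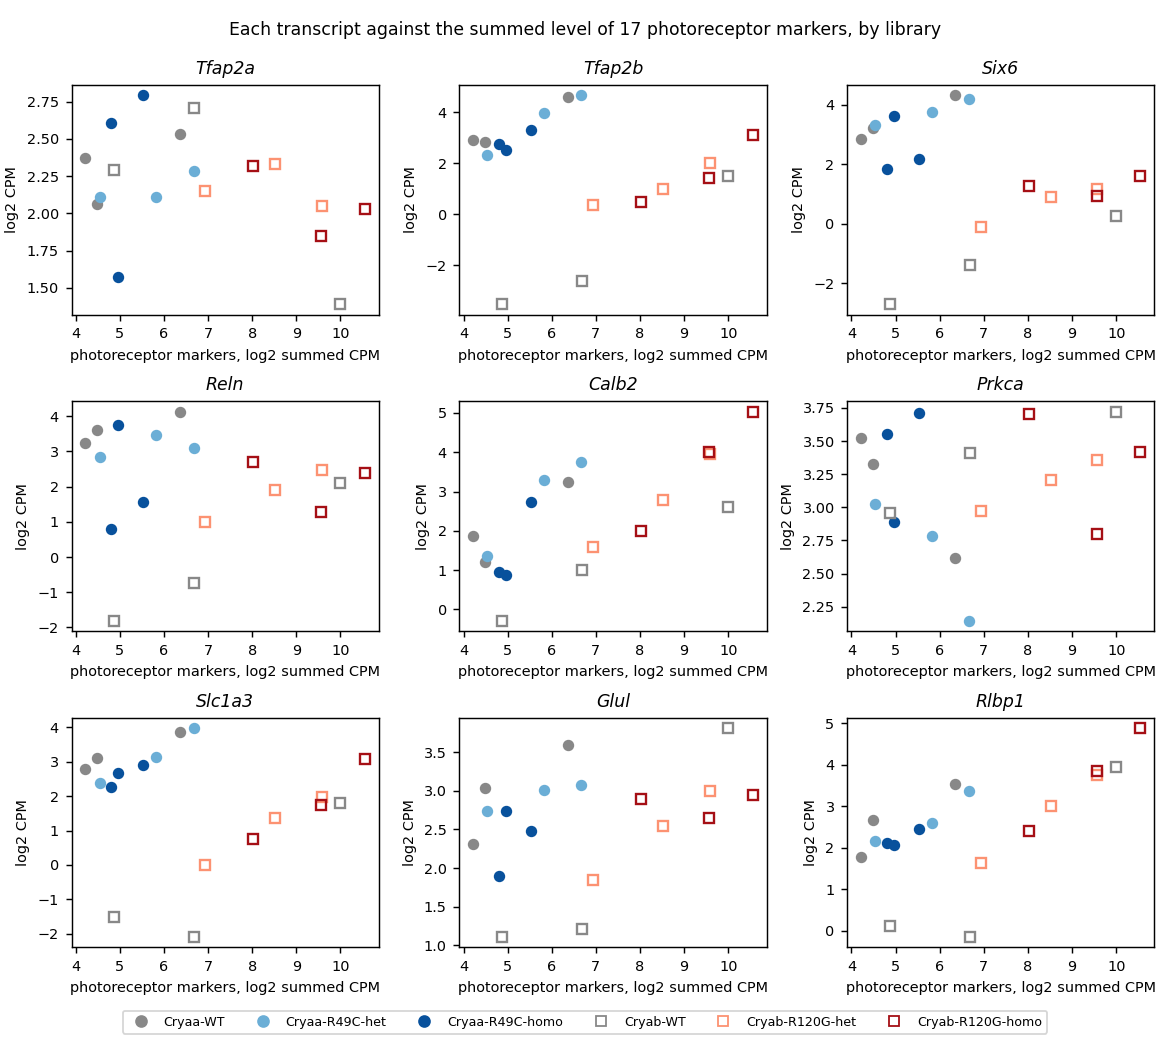
Log2 CPM (prior count 2) of each of the 9 genes (vertical axes) against the log2 summed CPM of 17 photoreceptor markers (horizontal axes), with 1 point per library, filled circles for the *Cryaa* line and open squares for the *Cryab* line. *Rlbp1* climbs with the sum in both lines (r = 0.87 and 0.95), whereas *Tfap2a* does not (r = 0.23 and -0.63).

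Per library, *Cryab*-R120G-homo replicate 1 was the highest of its line for 5 of the 9 genes. *Cryab*-WT replicate 2 was the lowest for 5 and among the lowest 2 for 8, and *Cryab*-WT replicate 3 was among the lowest 2 for 7. In the *Cryaa* line, WT replicate 3 was the highest for 4 genes, *Cryaa*-R49C-het replicate 3 for 3 and *Cryaa*-R49C-homo replicate 3 for 2, *Tfap2a* and *Prkca*.

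**Figure D5:**
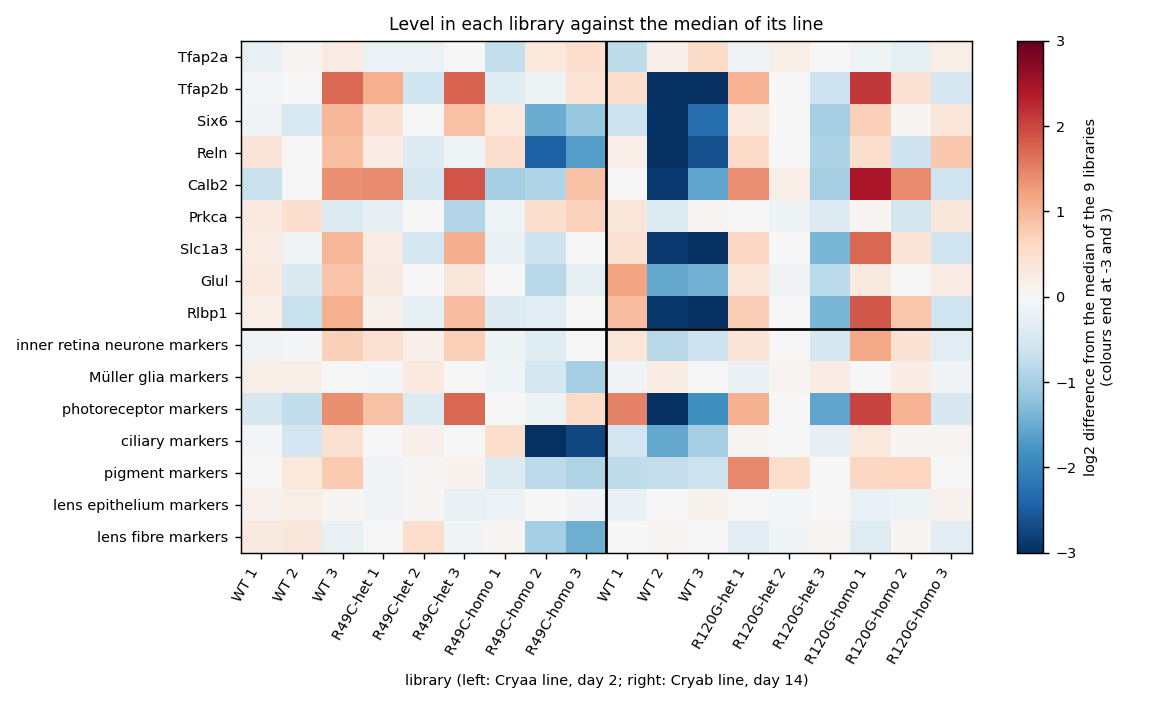
Log2 level of the 9 genes and of 7 summed marker lists (rows) in each library (columns), as the difference from the median of the 9 libraries of its line, from blue (lower) to red (higher), with colours ending at -3 and 3. *Cryab*-WT replicates 2 and 3 are blue for 7 of the 9 genes and for the photoreceptor markers, and the lens epithelium row, a sum led by *Prox1* and *Pax6*, differs little between libraries although its member *Gja1* fell in *Cryaa*-R49C-homo lenses.

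Other genes of the inner retina were taken from lists of known markers, made with earlier results of these data known. The counts below stand beside the share of all genes at an unadjusted p under 0.05, which was 3.82% in *Cryab*-R120G-het and 6.1% in *Cryab*-R120G-homo against WT lenses. DESeq2 called 0.0861% and 0.136% of all genes there. The likelihood-ratio test called 0.33% and 1.84% there, and 0.108%, 20.7% and 21.9% in the *Cryaa* contrasts of het and homo against WT and homo against het. Of 32 markers of ganglion, amacrine, horizontal and bipolar cells, 25 passed the filter, and edgeR's quasi-likelihood test called 0 of them in each of the 5 contrasts. In *Cryaa*-R49C-homo against WT lenses 3 of the 25 had a value above 0, with a median of -0.59, and 2 had an unadjusted p under 0.05, while DESeq2 called 0. In *Cryab*-R120G-homo against WT lenses 23 of the 25 had a value above 0, with a median of 1.53 beside 0.00 over all genes. There 6 had an unadjusted p under 0.05, DESeq2 called 0 and the likelihood-ratio test with robust dispersions called 9. Without *Cryab*-WT replicate 1 this median was 3.49, and without *Cryaa*-R49C-homo replicate 1 that of *Cryaa*-R49C-homo against WT was -0.52. In *Cryaa*-R49C-het and *Cryab*-R120G-het lenses the medians were 0.15 and 0.68, with 0 and 1 genes at an unadjusted p under 0.05 and 0 called by DESeq2. In *Cryaa*-R49C-homo against het lenses the median was -0.76, with 2 genes at an unadjusted p under 0.05, 1 called by DESeq2 and 4 by the likelihood-ratio test. The markers *Grm6* and *Bhlhe23* of bipolar cells were at 0 in all *Cryaa* libraries, and *Ptf1a* of amacrine and horizontal cells was at 0 in all *Cryab* libraries. The summed level of the 32 ranged from 55.8 to 97.5 CPM in *Cryaa*-WT, from 30.8 to 70.2 CPM in *Cryab*-WT and from 43.0 to 120 CPM in *Cryab*-R120G-homo lenses.

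Of the other Müller glia markers, all 12 passed the filter, and 1 fell in *Cryaa*-R49C-homo against WT lenses, where 4.91% of all genes fell, so the count is near the background. There 4 had an unadjusted p under 0.05, DESeq2 called 1 and the likelihood-ratio test 6. The gene that fell was *Clu*, the secreted chaperone clusterin, at 68.6 ± 17.5 CPM in homo against 185 ± 44.5 CPM in WT lenses (SD, n = 3), a log2 fold change of -1.43 (SE 0.258, adjusted p = 0.000757 in edgeR's quasi-likelihood test), and of -1.58 without homo replicate 1. In *Cryab*-WT lenses *Clu* was at 1050, 1369 and 1174 CPM, highest in replicate 2, where photoreceptor markers were lowest. *Clu*, *Dkk3* and *Apoe* had the highest levels of the list. The sum, which *Clu* and *Dkk3* lead with 1050 and 529 CPM in *Cryab*-WT replicate 1 and which therefore says little of the other markers, ranged from 1716 to 2123 CPM in *Cryab*-WT and from 1716 to 2130 CPM in *Cryab*-R120G-homo lenses. In *Cryab*-R120G-homo against WT lenses the list's median was 0.16 with 0 called and 1 at an unadjusted p under 0.05. DESeq2 called 0 there and the likelihood-ratio test 3. *Apoe*, a lipid carrier of glia, was at 32.2, 7.74 and 12.8 CPM in *Cryab*-WT, at 55.9, 33.5 and 23.5 CPM in het and at 71.7, 47.0 and 28.1 CPM in homo lenses, with WT replicate 1 again above the other WT libraries. Of 4 retinal astrocyte markers, 3 passed the filter, and edgeR's quasi-likelihood test called 0 in each contrast. Their sum was 5.19 to 6.15 CPM in *Cryaa*-WT, 3.14 to 3.83 CPM in het and 3.39 to 4.03 CPM in homo lenses. In the *Cryab* line it was 6.28 to 10.1 CPM in WT, 5.19 to 6.98 CPM in het and 3.90 to 7.48 CPM in homo lenses.

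Of the ciliary list, in which all 8 markers were tested, 3 fell in *Cryaa*-R49C-homo against WT lenses and 1 rose in *Cryab*-R120G-homo lenses, where 4.91% of all genes fell and 0.0287% rose. *Zic2* and *Zic1*, zinc-finger factors, fell by 2.39 and 1.73 on the log2 scale, and *Slc6a13*, a GABA transporter, fell by 1.62 (adjusted p = 0.00893, 0.0359 and 0.0151 in edgeR's quasi-likelihood test). Homo replicate 1 stood apart by the sum of these same markers, so the log2 fold changes without it, -3.12 for *Zic2*, -2.56 for *Zic1* and -2.10 for *Slc6a13*, are a description. In *Cryab*-R120G-homo lenses *Slc6a13* rose by 2.71 on the log2 scale (SE 0.494, adjusted p = 0.0353 in the same test), and by 3.07 without WT replicate 1. The study had reported a rise of *Slc6a13* in these same lenses, and the list was made with earlier results known. The call of *Slc6a13* there is therefore a description and no separate result. Of the 12 pigment cell markers tested, 3 fell in *Cryaa*-R49C-homo lenses, *Pmel* by 2.02 on the log2 scale (a log2 fold change of -2.76 without homo replicate 1), and 0 passed in the *Cryab* line, where their median was 1.88 in homo lenses, 8 had an unadjusted p under 0.05, DESeq2 called 2 and the likelihood-ratio test 5. In het lenses the pigment median was 2.23, with 9 at an unadjusted p under 0.05 and DESeq2 calling 4, and the ciliary median was 1.37. Summed pigment markers ranged from 16.1 to 17.9 CPM in *Cryab*-WT, from 27.4 to 74.4 CPM in het and from 27.0 to 43.0 CPM in homo lenses. Summed ciliary markers ranged from 11 to 21.6 CPM in *Cryab*-WT, from 26.9 to 34.1 CPM in het and from 32.8 to 39.9 CPM in homo lenses. Both sums were higher in every mutant library than in every WT library, replicate 1 included, and their part in the values of the 9 genes was not tested.

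Genes whose pattern was most like that of each member were named by Pearson r of log2 CPM over the 9 libraries of a line, as a description of these libraries. In the *Cryab* line the closest to *Slc1a3* were *Rtn1* (0.99), *Rlbp1* (0.99) and *Tmem150c* (0.99), and the closest to *Rlbp1* were *Cplx3* (0.99), *Slc1a3* (0.99) and *Sphkap* (0.99). *Six6* was nearest to *Ntrk2* (0.98) and *Col9a1* (0.97), and *Reln* to *Rhoj* (0.98), *Bmp2* (0.98) and *Iqgap2* (0.98). *Tfap2b* was nearest to *March1* (0.99) and *Sncb* (0.98), *Calb2* to *Gpm6a* (0.98) and *Mir124-2hg* (0.98), and *Glul* to *Fhod3* (0.98). In the *Cryaa* line *Tfap2b* was nearest to *9630028B13Rik* (0.99), *Celf4* (0.99) and *Mir124-2hg* (0.98), and *Reln* again to *Iqgap2* (0.99). *Calb2* was nearest to *Dpysl3* (0.97) there, *Slc1a3* to *Tbx3* (0.97), *Rlbp1* to *Cygb* (0.96), *Six6* to *Ldhb* (0.98) and *Glul* to *Lrriq1* (0.96). *Prkca* was nearest to *Nyap1* (0.99) in the *Cryaa* and to *Nipbl* (0.96) in the *Cryab* line, and *Tfap2a* to *Fancf* (0.98) and *Mapkapk3* (0.96). *Iqgap2* was the 1 gene that stood among the closest 3 of the same member in both lines.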

How the data were processed

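The members and lists were chosen with earlier results of these data known. Single reads of poly-A libraries were aligned by the authors with STAR 2.0.4b to GRCm38 and counted with featureCounts 1.4.5, and the deposited table holds these read counts without normalization. The strand setting is not given in the sources used here. The deposited RPKM values, which the authors derived from the same reads, served only for gene lengths. Deposited CPM and moderated log2 CPM were not used. Identical lines of 1 Ensembl gene were kept once.

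Genes were kept by filterByExpr (13938), scaled by TMM and fitted in edgeR 4.0.16 (R 4.3.3) as 6 groups over 18 libraries, with robust quasi-likelihood tests and Benjamini-Hochberg adjustment. Steps were tested on simulated data. Alternatives were DESeq2 1.42.0 size factors and tests, library size alone, every gene with at least 1 count, robust likelihood-ratio tests, single lines, a replicate block and leaving out each library. The text names all members, the 3 most changed or highest genes of a list, and the 3 most alike genes per line. Exact permutation tests used all 362880 pairings of 9 libraries. The study describes 3 biological replicates per genotype, each of combined lenses, so p-values measure the spread between pools. The labels number the replicates and name no animals or litters, and each *Cryab* title carries a further number of unstated meaning. Whether pools share animals or litters is therefore not known from the labels. Replicate numbers met the correlation rule for pairing in *Cryab* WT and homozygous lenses alone (r = 0.28, 0.18 and 0.16), a contrast given here as a description, and not between *Cryab*-R120G-het and homo lenses (r = 0.26, -0.008 and 0.057). These r are taken over all genes kept. In *Cryab*-R120G-het and in homo lenses, the photoreceptor sum, *Tfap2b*, *Calb2*, *Slc1a3* and *Rlbp1* nevertheless all fell with rising replicate number. The reason for this was not tested.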

Additional observations from a re-analysis of the deposited data

How the results depend on the processing

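In *Cryaa*-R49C-het against WT lenses, 0 of the 9 genes passed the threshold under every alternative run. In *Cryaa*-R49C-homo against WT lenses, 1 gene (*Reln*) passed with every gene of at least 1 count, beside 1498 of 26547 genes. In the likelihood-ratio test with robust dispersions 1 (*Reln*) passed there, beside 20.7% of all genes. In homo against het lenses, 1 (*Prkca*) passed with library size alone, beside 1019 of 13938 genes. With every gene of at least 1 count 3 (*Calb2*, *Six6* and *Tfap2b*) passed, beside 1419 of 26547 genes. In that likelihood-ratio test 2 (*Six6* and *Reln*) passed, beside 21.9% of all genes. The cause of these changes was not tested. Leaving out each library in turn gave 0 to 0 genes in het and 0 to 2 in each of the homo contrasts, the 2 without *Cryaa*-R49C-homo replicate 1.

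With the replicate number as a replicate block, 0 of the 9 genes passed in each *Cryaa* contrast. Same-numbered libraries correlated, after removal of group means, with r from -0.05 to 0.48 in het against WT, from 0.04 to 0.16 in homo against WT and from -0.28 to 0.11 in homo against het, so they share only a number there. In *Cryab* WT and homo lenses all 3 correlations exceeded 0.1 (0.28, 0.18 and 0.16), and with the block the median of the 9 genes in homo lenses was 2.10 (1.66 without), while the calls over all genes went from 7 to 18.

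The median log2 fold change of the 9 genes in *Cryab*-R120G-het lenses was 2.53, and in homo lenses 3.10, in the likelihood-ratio test with robust dispersions. Over single libraries left out, the median ranged from -0.30 to 0.36 in *Cryaa*-R49C-het and from -0.94 to -0.06 in *Cryaa*-R49C-homo lenses. In the *Cryab* line it ranged from 0.52 to 3.12 in het and from 1.06 to 3.69 in homo lenses. The genes with every *Cryab* mutant library above WT numbered 7 in het and 7 in homo lenses without *Cryab*-WT replicate 1, an alternative chosen after seeing the data.

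Signs changed in both mutant groups of the *Cryaa* line. In *Cryaa*-R49C-het lenses with library size alone *Tfap2a* was at 0.035, *Slc1a3* at 0.18, *Glul* at 0.021 and *Rlbp1* at 0.12. *Slc1a3* and *Rlbp1* were at 0.015 and 0.011 with DESeq2 size factors, 0.0043 and 0.0026 with every gene of at least 1 count, and 0.013 and 0.0083 in DESeq2, and *Rlbp1* at 0.029 with the block. Over libraries left out, in het lenses, *Tfap2b* ranged from -0.33 to 1.08, *Six6* from -0.076 to 0.75, *Slc1a3* from -0.53 to 0.36, *Glul* from -0.39 to 0.24 and *Rlbp1* from -0.43 to 0.53. In homo against WT lenses *Tfap2a* ranged from -0.17 to 0.37, *Tfap2b* from -1.10 to 0.029, *Calb2* from -1.49 to 0.21 and *Prkca* from -0.0083 to 0.43. Of 351 single-gene values under alternatives in the *Cryaa* line, 310 kept direction and side of the threshold. Library size alone moved the median of all genes by 0.41 in *Cryaa*-R49C-homo against WT. Counts over all genes changed by more than 1.5 times in several alternatives, from 746 to 3085 over libraries left out and to 2138 (1884 higher, 254 lower) with library size alone and 2887 in the likelihood-ratio test, against 1364.

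Counts of 0 to 4 in 2 of the *Cryab*-WT libraries limit the fold changes of *Tfap2b*, *Six6* and *Slc1a3*.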
